A study of Mus musculus with 9 samples.

Results

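Of the 33054 circular RNAs (circRNAs) that were deposited as exonic for C2C12 cells, 985 carried the identifier of a circRNA that had been described before. Membership was set by that entry alone, with no measured value. The choice of this class, the gene lists and the tests was made with earlier results of these data known. The other 32069 exonic circRNAs, whose entry was empty, served as the comparison. All the identifiers begin with mm9_circ and are taken here as entries of circBase, a public catalogue of circRNAs, although the table names no database. How the entries were matched is not given in the sources used here. Their prefix names the older mouse build mm9, whereas the coordinates are those of GRCm38. C2C12 is an established mouse myoblast line that divides in serum-rich medium and fuses into myotubes when serum is withdrawn. Libraries were made from proliferating cells (day 0) and from cells kept for 3 or 6 days in medium with horse serum in place of fetal bovine serum, with 3 libraries per day and 9 in all. Per the labels, the RNA was extracted with TRIzol, cleaned on beads and treated with DNase for circRNA enrichment before mRNA-seq library construction. Whether the libraries of a day stem from separate cultures is not said in the labels, and a p-value here speaks only of the spread among these 9 libraries, technical or not.

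A circRNA forms when the spliceosome joins the end of an exon to the start of the same or an earlier exon, a reaction called back-splicing. The closed loop has no free end for exonucleases, and many circRNAs are therefore long-lived. Inverted repeats in the introns on either side, or proteins bound there, can bring the splice sites together. Long flanking introns and a start at the second exon of the host gene are well-known features of circRNAs. In muscle, some circRNAs of structural and regulatory genes are known to change as myoblasts stop dividing and fuse.

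What a read must cross to be counted is the back-splice junction, and 13 junctions are shown because the results below turn on these circles. Each line gives the last 20 bases of the last exon in lower case and the first 20 bases of the first exon in capitals, 5′ to 3′ on the strand of the host gene. They were read from GENCODE M21 transcripts of GRCm38, all within coding sequence. Exon numbers are those of the transcript used. Nfix is the single exon 2 (chr8:84771784-84772315, minus strand), Gigyf2 exons 4 to 8 (chr1:87364104-87380008, plus) and Rad52 exons 10 to 11 (chr6:119920110-119921028, plus). Tns3 joins exons 18 to 20 (chr11:8478225-8479665, minus), Macf1 exons 2 to 5 (chr4:123536202-123554365, minus) and Pard3 exons 19 to 20 (chr8:127415570-127426753, plus). The 2 Utrn circles start at exon 60 and end at exon 64 (chr10:12436281-12455564, minus) or exon 63 (chr10:12439627-12455564, minus), so their capitals are the same and only the lower-case part tells them apart. The 2 Agap1 circles lie side by side, exons 2 to 6 (chr1:89604598-89634294, plus) and exons 7 to 9 (chr1:89663661-89671271, plus). Espl1 joins exons 5 to 7 (chr15:102299803-102304145, plus), Knl1 exons 9 to 12 (chr2:119076936-119086650, plus) and Bub1b exons 17 to 19 (chr2:118631759-118635277, plus).
Nfix: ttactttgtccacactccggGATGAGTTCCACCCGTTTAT
Gigyf2: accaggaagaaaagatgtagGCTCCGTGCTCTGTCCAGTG
Rad52: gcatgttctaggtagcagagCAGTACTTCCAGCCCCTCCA
Tns3: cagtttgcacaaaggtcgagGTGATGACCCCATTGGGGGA
Macf1: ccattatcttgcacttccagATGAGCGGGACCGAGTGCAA
Pard3: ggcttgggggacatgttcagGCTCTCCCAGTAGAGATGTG
Utrn, exons 60 to 64: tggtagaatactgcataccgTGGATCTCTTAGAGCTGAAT
Utrn, exons 60 to 63: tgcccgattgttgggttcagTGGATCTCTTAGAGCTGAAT
Agap1, exons 2 to 6: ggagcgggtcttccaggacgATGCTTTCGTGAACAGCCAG
Agap1, exons 7 to 9: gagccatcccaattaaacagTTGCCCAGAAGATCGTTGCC
Espl1: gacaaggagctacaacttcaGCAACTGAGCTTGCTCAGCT
Knl1: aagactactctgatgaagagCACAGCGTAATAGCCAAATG
Bub1b: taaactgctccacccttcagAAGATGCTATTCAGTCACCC

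The circRNAs with an identifier were few in number and took up 29.7% to 34.6% of the exonic back-splice reads of a library. Single libraries held 208787 to 443955 back-splice reads and listed 588 to 725 of the 985 members, or 7.05% to 9.44% of their exonic circRNAs. The members took 29.7%, 31.2% and 31.0% of exonic reads in replicates 1, 2 and 3 of day 0. At day 3 the shares were 34.2%, 33.1% and 33.7%, and at day 6 they were 33.1%, 34.6% and 31.5%. All 6 later libraries lay above the 3 day 0 libraries. Mean shares were 30.6% ± 0.846, 33.7% ± 0.576 and 33.1% ± 1.55 (SD, n = 3) at days 0, 3 and 6. The differences from day 0, 3.07 and 2.45 percentage points, each had a two-sided exact permutation p of 0.1, the smallest that 3 libraries against 3 can give (0.15 after Benjamini-Hochberg adjustment over 3 comparisons). Over circRNAs in at least 2 libraries, and without the 10 exonic circRNAs with the most reads, the day 6 difference fell to 1.60 and 1.35 points (exact permutation p = 0.3 in both). Day 6 and day 3 overlapped, with a difference of -0.616 points (exact permutation p = 0.7). The share of listed circRNAs that were members was 7.71% ± 0.862, 7.94% ± 0.076 and 8.51% ± 1.04 at the 3 days, with exact permutation p of 0.7, 0.3 and 0.4 and adjusted values of 0.6 to 0.7.

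A listed member had on average 135 ± 26.7 reads in its library (SD over 9 libraries, range 104 to 184). A listed circRNA without an identifier had 24.4 ± 3.85 (18.4 to 31.9). The ratio of the means was 5.50, a log2 difference of 2.46 ± 0.13, with the members higher in 9 of 9 libraries (two-sided exact sign-flip permutation test, p = 0.0039, the smallest possible, and 0.00586 after adjustment over 3 such tests). The medians were 37 to 60 reads for members and 9 to 15 for the others, so the difference was not carried by a few circles. These libraries list many of the same circRNAs and are not separate samples of circRNAs. A circRNA has 1 junction whatever its length, so the read number needs no scaling by length. Over all 9 libraries the median level was 69.3 CPM (back-splice reads scaled to a common library total) for members and 4.91 for the others.

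The more reads a circRNA had, the more often it carried an identifier. Of the exonic circRNAs with 2 to 9 reads over all libraries, 60 of 11309 (0.531%) did so. The share was 0.826% from 10 reads, 1.98% from 20, 4.38% from 50 and 11.2% from 100, and it reached 314 of 831 (37.8%) from 500 reads. By rank, 7 of the 10 most abundant exonic circRNAs had an identifier, as did 38 of the first 50, 62 of the first 100, 227 of the first 500 and 347 of the first 1000. So 38 of the 100 most abundant exonic circRNAs of these cells had none. The most abundant member, the Nfix circle, supplied 6.29% to 10.4% of all member reads in a library. The 10 most abundant members supplied 20.6% to 27.3%.

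**Figure D1:**
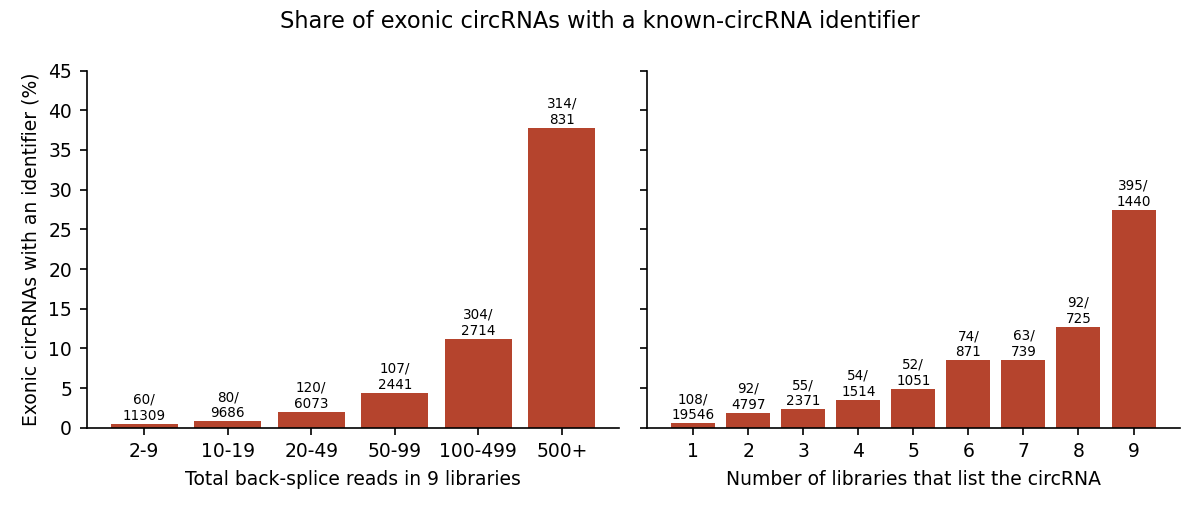
Percent of exonic circRNAs with a known-circRNA identifier, by total back-splice reads in the 9 libraries (left) and by the number of libraries that list the circRNA (right); the fraction above each bar gives the number with an identifier over the number in the class. The share rose from 0.531% to 37.8% with reads and from 0.553% to 27.4% with the number of libraries.

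Members were also listed in more libraries than the rest. Of the members, 395 (40.1%, Wilson 95% interval 37.1 to 43.2) were listed in all 9 libraries and held 92.1% of member reads. Of the circRNAs without an identifier, 1045 (3.26%, 3.07 to 3.46) were listed in all 9 and held 47.1% of their reads. In 1 library only were 108 members (10.96%) and 19438 others (60.6%). In the other direction, 27.4% of the exonic circRNAs found in all 9 libraries had an identifier, against 0.553% of those found in 1. By day, 714 members were listed at all 3 days, 40 in day 0 libraries only and 151 in day 3 or day 6 libraries only. Day 0 supplied 3 of the 9 libraries and the later days 6. The same split of the other exonic circRNAs is not given here, so these counts are not read as a trait of the members. The 40 held 581 reads in all and the 151 held 3958, with at most 68 and 149 reads for a single member, beside 820606 reads for the 714. Among the 395, the coefficient of variation of CPM over the 9 libraries had a median of 39.8%, with quartiles of 28.2% and 51.3%.

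The excess in recurrence was also present within classes of read number. In a library, 91.5% ± 2.20 of the listed members were also listed in another library of the same day, against 53.5% ± 4.36 of the other exonic circRNAs (SD, n = 9 libraries). The difference of 37.99 percentage points was positive in 9 of 9 libraries (exact sign-flip permutation p = 0.0039, adjusted 0.00586). The values of a day are computed from one another, and the libraries share many circRNAs, so the 9 values are not independent. Among circRNAs with 2 to 4 reads in the library, 70.5% ± 7.29 of members recurred and 30.5% ± 4.95 of the others. With 5 to 9 reads the shares were 69.0% ± 11.2 and 35.1% ± 4.91, and with 10 to 19 reads 77.9% ± 4.87 and 46.5% ± 7.36. With 20 reads or more they were 97.7% ± 1.59 and 87.0% ± 5.29, but this class, which held most members, has no upper bound, and read number was not matched within it. Members were higher in 9 of 9 libraries in each of the 4 classes. Per library, the lowest class held only 8 to 27 members. The smallest count above 0 in the table is 2, so a circRNA with a single read in a library appears there as absent.

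**Figure D2:**
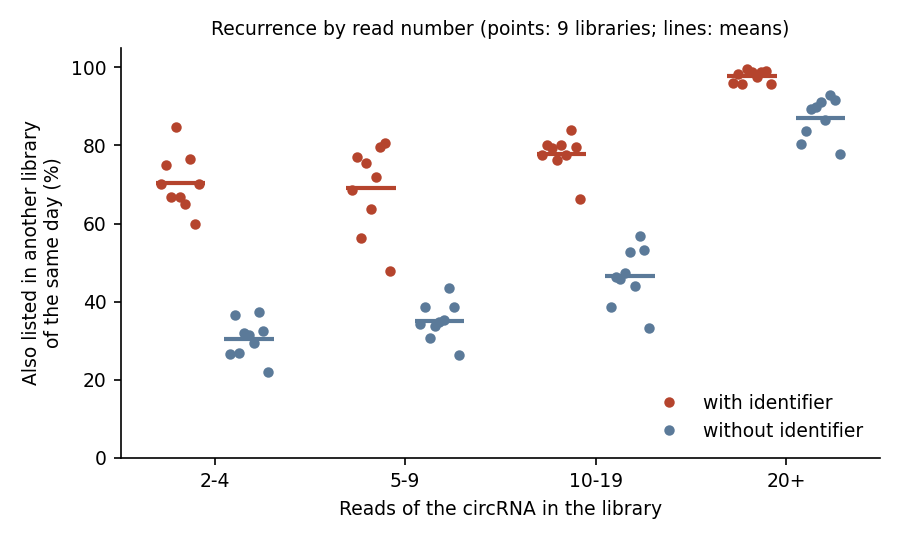
Share of listed circRNAs that were also listed in another library of the same day (y axis, percent), by the number of reads in the library (x axis), for members and for exonic circRNAs without an identifier; points are the 9 libraries and lines their means. Members lie above the others in each library and class, with means of 70.5% against 30.5% at 2 to 4 reads and 97.7% against 87.0% at 20 or more.

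Taken over all circles, the members were shorter and had longer introns beside them. Both ends lay exactly at annotated exon edges in 97.5% of members and 89.3% of the others, and 1 annotated transcript held both ends of 949 of the 985 members and 28214 of the 32069 others. Among these, the spliced circle had a median of 469 bases (quartiles 333 to 703) for members and 589 (420 to 877) for the others, with a median of 3 exons against 4. Circles of a single exon made up 7.17% of members and 1.35% of the others, and circles of more than 5 exons 17.2% and 35.9%. These differences were smaller where recurrence was matched. Among circles listed in all 9 libraries, both ends lay at exon edges in 97.2% of members and 96.8% of the others. Their spliced medians were 505 and 529 bases, with a median of 4 exons in both. Single-exon circles made up 7.69% and 2.98%, and circles of more than 5 exons 17.8% and 22.7%. The genomic span, introns included, hardly differed: its median was 9343 bp for members and 9183 bp for the others over all circRNAs. Within single libraries the order was the reverse, with mean medians of 9029.5 ± 379 and 9543 ± 336 bp, and members were shorter in 8 of 9 libraries (exact sign-flip permutation p = 0.0078, also after adjustment). The log2 difference of -0.08 was small beside the spread of spans within either class. Here too the 9 libraries share many circRNAs, so their values are not independent.

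The intron upstream of a member had a median of 15261 bp (quartiles 5971 to 29226), and that upstream of a circle without an identifier 4757 bp (1912 to 12977). Downstream introns had medians of 11885 bp (5103 to 26148) and 3385 bp (1545 to 7978). In single libraries the upstream medians were 15014 to 15638.5 bp for members and 6246 to 7475 bp for the others, with no overlap. Members started at the second exon of their transcript in 40.8% of cases and the others in 25.1%, and the intron after the first exon is often the longest of a gene. The difference in intron length was also present on both sides of that split. Among circles that start at exon 2, upstream medians were 22657 and 11088.5 bp and downstream medians 11908 and 3651 bp. Among circles that start later, they were 9415 and 3694.5 bp upstream and 11885 and 3270 bp downstream. The difference was smaller where recurrence was matched. Among circles listed in all 9 libraries, upstream medians were 15609 and 11083 bp and downstream medians 12400 and 7943.5 bp. Circles without an identifier had longer introns the more libraries listed them, from 3651 bp upstream in those found once to 11083 bp in those found in all 9. Members showed no such order, with 12963.5, 16431, 13794 and 15609 bp in those found in 1, 2 to 4, 5 to 8 and 9 libraries.

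**Figure D3:**
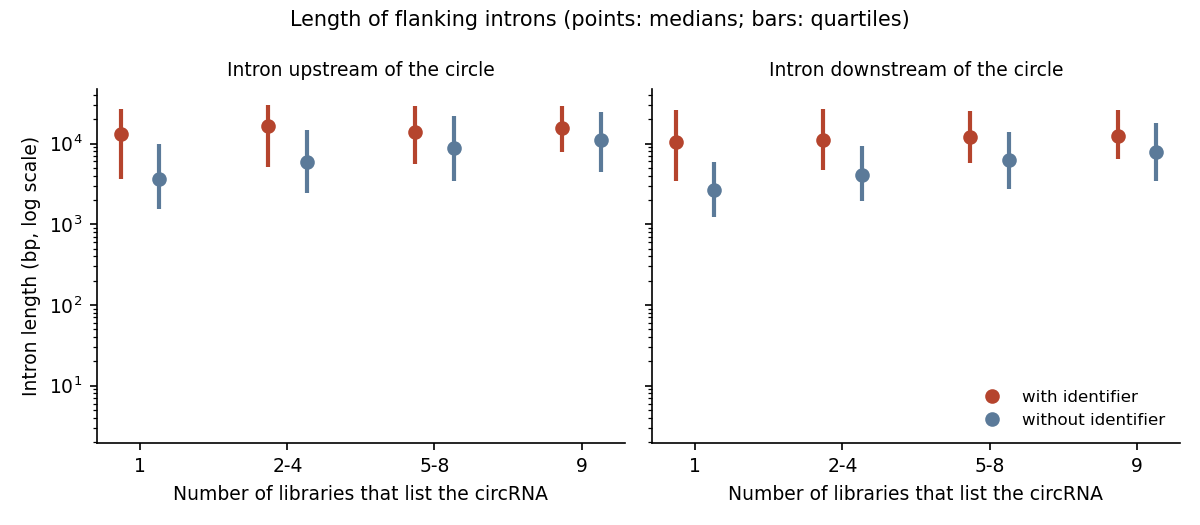
Length of the introns directly upstream (left) and downstream (right) of the circle (y axis, bp, log scale), by the number of libraries that list it; points are medians and bars the quartiles, for members and for exonic circRNAs without an identifier. Upstream medians were 12963.5 bp for members and 3651 bp for the others in circles found once, and 15609 and 11083 bp in circles found in all 9 libraries.

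In sequence content the classes were alike or differed modestly. All bases were coding in 77.1% of members and 86.7% of the others, and 19.9% and 11.04% covered the start codon side of the coding sequence, beginning in the 5′ untranslated region. Among the 949 members, 10 came from a transcript annotated as non-coding and 12 reached the stop codon. None started at exon 1, as 30 of the others did, and 2 ended at the last exon. Median GC content was 48.1% and 49.6%. The circle length was a multiple of 3 in 38.5% of fully coding members and 39.3% of the others. No genome sequence was used here, so repeats in the flanking introns were not examined.

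The 985 members came from 742 host genes, of 6704 hosts of exonic circRNAs. A single member was found in 587 hosts, 2 in 100 hosts and 3 or more in 55. A host with a member had a median of 8 exonic circRNAs, and a member was the most abundant of them in 502 hosts (67.7%). The members of a host held a median of 57.3% of its exonic back-splice reads, with quartiles of 24.9% and 87.0%, and 57 hosts had no exonic circRNA without an identifier. Members shared their start or end with another exonic circle in 87.2% of cases and the others in 73.9%, and they shared both, with different partners, in 42.9% and 29.1%. Rere, which encodes a nuclear corepressor of the atrophin family, had the most members, 10 of its 34 exonic circRNAs with 76.3% of its reads. Tasp1, the gene of the protease that cleaves the histone methyltransferase MLL, had 6 of 24 with 84.6%. In Cacna2d1, a calcium channel subunit gene, 4 of 17 held only 24.3%.

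Changes with differentiation were tested for the 761 members that passed the count filter. These held 99.5% of member reads, and the 224 left out had a median of 16 reads in all. At day 3 against day 0, 30 members were higher and 12 lower (edgeR's quasi-likelihood test, Benjamini-Hochberg adjusted p under 0.05), together 42 or 5.52% of those tested. The background over all 8153 tested circRNAs of every kind was 1.58%, with 1.31% higher and 0.270% lower, and that of exonic circRNAs without an identifier was 1.13%. At day 6 against day 0, 27 were higher and 17 lower, 5.78% of those tested, against a background of 1.99%, of which 1.47% were higher and 0.515% lower. In every called member the 3 libraries of one day lay wholly above those of the other, without overlap. The same held for 72 of 78 called exonic circRNAs without an identifier at day 3 and 106 of 107 at day 6. These counts rest on the same values as the calls and add no support to them. The share without overlap over all tested circRNAs is not given here. The median log2 fold change of tested members was 0.20 at day 3 and 0.05 at day 6, beside 0.12 and 0.01 over all tested circRNAs. With DESeq2, where the median of all circRNAs at day 3 was shifted by -0.13, 34 members were higher and 25 lower at day 3. The balance also moved with single libraries. Without replicate 3 of day 0, 42 were higher and 10 lower at day 3, and 46 higher and 10 lower at day 6. Without replicate 1 of day 3, 25 were higher and 7 lower at day 3.

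The higher share of calls among members went with their abundance. At a mean of 300 CPM or more, 39 of 226 members (17.3%) and 38 of 268 circRNAs without an identifier (14.2%) were called at day 3, and 17.3% and 16.4% at day 6. From 100 to 300 CPM the order was reversed, with 1.52% and 2.68% at day 3 and 2.53% and 4.25% at day 6. From 30 to 100 CPM none of 232 members was called in either comparison, against 0.672% and 1.05% of the others. The difference between the classes within a level was not tested, and the background above is not one of equal level. Gene lists below are set beside all 761 tested members. Their circles without an identifier can be set beside 6921 tested ones, of which 68 were higher and 10 lower at day 3. At day 6, 83 of these were higher and 24 lower. The day 3 and day 6 comparisons share the day 0 libraries and are not independent of each other, so values for both days are given side by side.

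**Figure D4:**
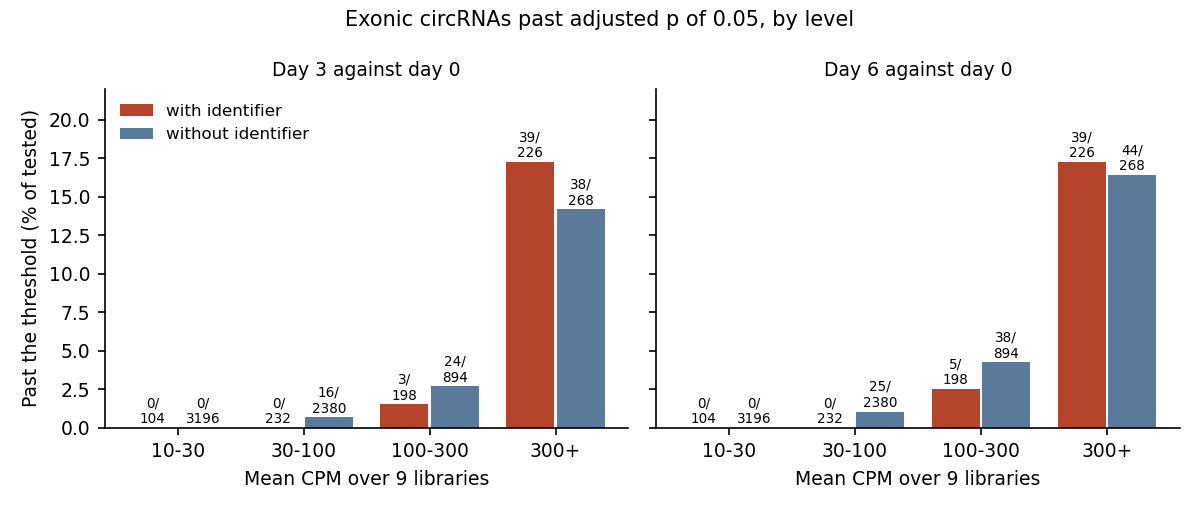
Percent of tested exonic circRNAs past an adjusted p of 0.05 in edgeR's quasi-likelihood test (y axis) by mean CPM over the 9 libraries (x axis), for day 3 (left) and day 6 (right) against day 0; fractions give the number called over the number tested. At 300 CPM or more, 17.3% of members and 14.2% of the others were called at day 3, and no member under 100 CPM was called.

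The most abundant member was the single-exon circle of Nfix, a transcription factor of the nuclear factor I family that takes part in the fetal muscle programme. It had 17530.1, 20287 and 20534 CPM at day 0, 35131, 23179.8 and 33156 at day 3, and 22424, 32857 and 23041 at day 6. Each later library lay above each day 0 library, though replicate 2 of day 3 and day 6 replicates 1 and 3 did so by little. The log2 fold change was 0.65 ± 0.09 at day 3 (approximate SE, edgeR adjusted p = 2.6e-06) and 0.42 ± 0.09 at day 6 (edgeR adjusted p = 0.0031). It did not pass with DESeq2, where the adjusted p was 0.0997 and 0.247. Day 6 and day 3 overlapped and did not differ past the threshold (-0.22, edgeR adjusted p = 0.664). The difference passed in 6 alternatives (edgeR adjusted p 1.14e-22 to 0.00013). These were no count filter and the omission of replicate 1, 2 or 3 of day 0, replicate 2 of day 3 or replicate 2 of day 6. Omitting a day 0 library leaves the counts of days 3 and 6 as they were, so there the adjusted p moved with the fit alone. These passes are not read as support for a difference. Of the list of 39 myogenic regulators and fusion genes, 7 had a member (Cdh2, Celf2, Dock1, Hdac4, Neo1, Nfix and Tead1). Of 6 tested members only that of Nfix was called, and none was lower. Over all 761 tested members, 30 were higher and 12 lower at day 3, and 27 and 17 at day 6. Of 80 tested circles of the listed genes without an identifier, 4 rose at day 3 and 6 at day 6, none falling.

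A few members from genes that tie the membrane to the cytoskeleton were among the clearest increases. The list of the dystrophin complex and membrane cytoskeleton held 15 members in 10 hosts, of which 3 of 14 tested rose at day 3 and 4 at day 6, none falling. Its median log2 fold change was 0.58 and 0.70, beside 0.12 and 0.01 over all tested circRNAs, of which 1.31% and 1.47% were higher. Members were called more often than that, with 30 and 27 of 761 tested higher and medians of 0.20 and 0.05. The 4 called circles averaged more than 300 CPM, a level at which 39 of 226 members were called at day 3. Whether the list differs from members of equal level was not tested. Of 86 tested circles of the listed genes without an identifier, 2 rose at day 3 and 3 at day 6. The circle of exons 18 to 20 of Tns3, a focal adhesion protein that binds actin, had 1627, 1369 and 2448 CPM at day 0, 5679, 5245 and 4543 at day 3, and 7039, 8556 and 4874 at day 6. The lowest later library, at 4543, was well above the highest of day 0, at 2448. The log2 fold changes were 1.51 ± 0.17 and 1.91 ± 0.17 (edgeR adjusted p = 1.6e-09 and 5.5e-13). In Utrn, which encodes utrophin, a homologue of dystrophin that can take its place at the membrane, the circle of exons 60 to 64 had 1961, 1616 and 1516 CPM at day 0. It had 4144, 4789 and 4977 at day 3 and 4968, 5290.2 and 5312 at day 6, a log2 fold change of 1.45 ± 0.15 and 1.61 ± 0.15 (edgeR adjusted p = 2.7e-10 and 5.3e-12). The shorter Utrn circle, which uses the same start and ends 1 exon earlier, was at 84.3, 397 and 51.7 CPM at day 0, 504, 424 and 457 at day 3, and 1047, 799 and 916 at day 6. Replicate 2 of day 0 was far above the other day 0 libraries, and the circle passed at day 6 (2.37 ± 0.45, edgeR adjusted p = 0.00034) and not at day 3 (1.38 ± 0.44, edgeR adjusted p = 0.14). Without replicate 2 of day 0 the day 3 value was 2.75 and passed (edgeR adjusted p = 1.54e-06), as it did with a replicate block (1.71, edgeR adjusted p = 0.00955). Macf1, a giant linker of actin and microtubules, had a circle of exons 2 to 5 that rose from 137, 166 and 279 CPM to 1059, 1216 and 1407 at day 3 and 1693, 1460.5 and 1389.6 at day 6. That is a log2 fold change of 2.66 ± 0.30 and 2.97 ± 0.31 (edgeR adjusted p = 3.7e-09 and 1.1e-10). The 98-exon transcript of Macf1 is entered by this circle at its second exon, after an intron of 129604 bp.

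**Figure D5:**
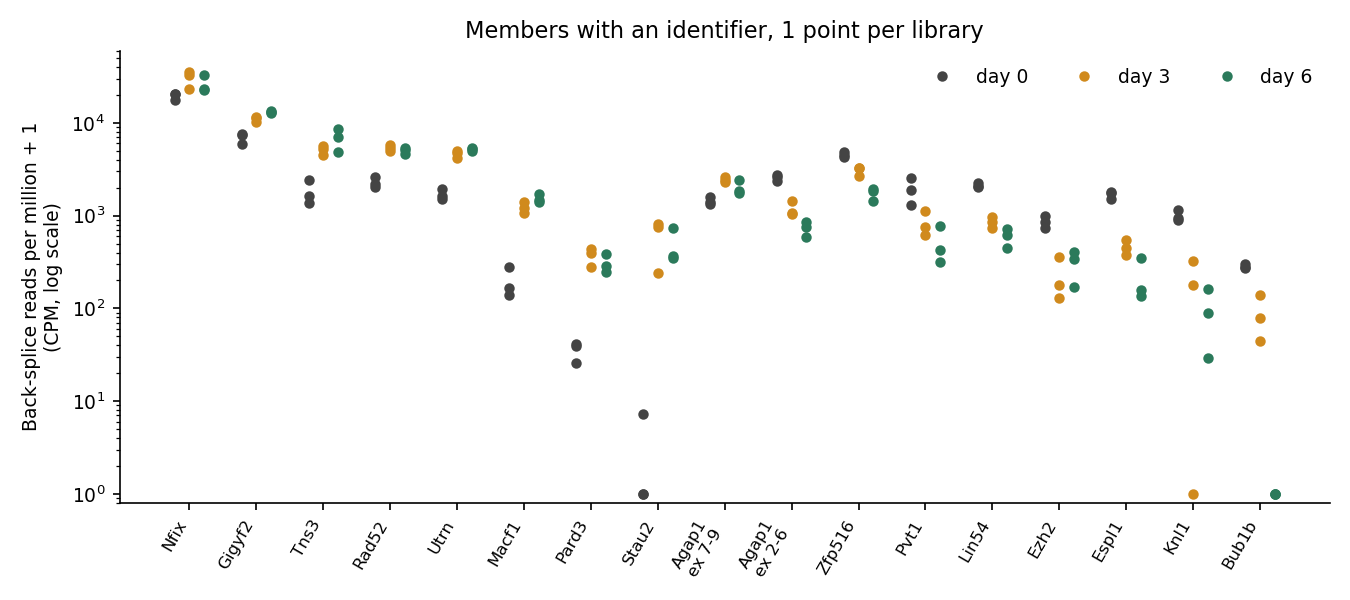
Level of 17 members in each library (y axis, CPM plus 1, log scale), with 1 point per library and colours for days 0, 3 and 6; the first Utrn circle is that of exons 60 to 64, and points at 1 are libraries with no listed read. Tns3, Rad52, Utrn, Macf1, Pard3 and Stau2 lie higher at days 3 and 6 than at day 0, and Lin54, Espl1, Knl1 and Bub1b lie lower.

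RNA-binding proteins gave members in both directions. Of 69 listed genes for RNA binding and splicing, 15 had a member. Stau2, given below, also encodes an RNA-binding protein but is not on this list, so its rise is not counted here. Of 16 tested members, 2 rose and 1 fell in each comparison with day 0. Of all 761 tested members, 30 rose and 12 fell at day 3, and 27 rose and 17 fell at day 6. Of 140 tested circles of the listed genes without an identifier, 1 rose and none fell in each comparison. The circle of Gigyf2, a partner of the translational repressor 4EHP, had 7386, 5880.4 and 7507 CPM at day 0, 11299.5, 10254 and 11646 at day 3, and 12685, 12958 and 13595 at day 6. The 3 days did not overlap, and the log2 fold change was 0.68 ± 0.10 at day 3 and 0.92 ± 0.10 at day 6 (edgeR adjusted p = 2.6e-06 and 4.2e-10). Day 6 against day 3 was not called (0.24, edgeR adjusted p = 0.664). The single-exon circle of Samd4, a translational repressor of the Smaug family, had a mean of 2214 ± 480 CPM at day 0, 4275 ± 1234 at day 3 and 4070.2 ± 944 at day 6 (0.95 ± 0.18 and 0.88 ± 0.18, edgeR adjusted p = 0.00037 and 0.000902). Day 3 replicate 2 held 2850.2 CPM, close to the 2749 of replicate 2 of day 0, and the circle did not pass with DESeq2 (adjusted p = 0.144 and 0.0883). That of Hnrnpll, a splicing regulator, went from 940.0 ± 166 CPM to 346 ± 104 and 351 ± 40.4 (-1.44 ± 0.37 and -1.42 ± 0.37, edgeR adjusted p = 0.0201 and 0.0197). It lost the threshold at day 3 when replicate 1 or 3 of either day was left out, and at day 6 when replicate 1 or 3 of day 0 or replicate 2 or 3 of day 6 was, and at both days with no count filter (edgeR adjusted p 0.0641 to 0.336 and 0.0686 to 0.192).

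Among cell-cycle and mitosis genes, 5 of 50 had a member, and none of their circles rose. Of 6 tested members 2 fell at day 3 and 3 at day 6, with a median log2 fold change of -1.80 and -2.40. Over all tested circRNAs, 0.270% and 0.515% were lower, and of the 761 tested members 12 and 17 were. Whether the list differs from members of equal level was not tested. Of 53 tested circles of the listed genes without an identifier, 3 fell at day 3 and 5 at day 6. Espl1 encodes separase, the protease that releases sister chromatids. Its circle had 1765, 1504 and 1803 CPM at day 0, 376, 452 and 542 at day 3, and 346, 134 and 156 at day 6. The 3 days did not overlap, and the log2 fold changes were -1.89 ± 0.33 and -3.0 ± 0.35 (edgeR adjusted p = 0.00012 and 3.6e-09). Day 6 against day 3 was not called (-1.11, edgeR adjusted p = 0.664). The circle of Knl1, a scaffold of the kinetochore, had 1152, 895 and 951 CPM at day 0, 179.8, 326 and 0 at day 3, and 162, 89.3 and 28.4 at day 6. The log2 fold changes were -2.57 ± 0.63 and -3.44 ± 0.66 (edgeR adjusted p = 0.014 and 0.00034), and the circle did not pass with DESeq2 (adjusted p = 0.305 and 0.0913). The circle of Bub1b, a kinase-like protein of the spindle checkpoint, had 269, 301 and 279 CPM at day 0 and 77.0, 137 and 44.0 at day 3. It had no listed read in the 3 day 6 libraries. Against a floor of 3 reads per library, day 6 was at least 25.9-fold lower than day 0 and at least 7.87-fold lower than day 3 (edgeR adjusted p = 1.7e-05 and 0.0094). The other members of the list, 1 of Ckap5 and 2 of Haus6, did not pass.

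Decreases were also seen in single circles of chromatin genes, of Lin54 and of Pvt1. Of 67 chromatin modifiers, 17 had members, 26 in all. Of 22 tested, 2 fell at each later day and none rose, with a median log2 fold change of -0.11 and -0.14. Over all 761 tested members, 12 fell and 30 rose at day 3, and 17 fell and 27 rose at day 6, with medians of 0.20 and 0.05. Of 156 tested circles of the listed genes without an identifier, none was called at either day. The circle of Ezh2, the methyltransferase of Polycomb complex PRC2, had 740.2, 852 and 991 CPM at day 0, 128, 354 and 176 at day 3, and 404, 337 and 170.4 at day 6. It passed at day 3 (-1.97 ± 0.43, edgeR adjusted p = 0.00404) but not without replicate 1 of day 3 (edgeR adjusted p = 0.055). At day 6 (-1.51 ± 0.43, edgeR adjusted p = 0.043) it lost the threshold when any 1 library of day 0, or replicate 2 or 3 of day 6, was left out, and with no count filter (edgeR adjusted p 0.0514 to 0.299). That of Nsd2, a histone H3 lysine 36 methyltransferase, went from 1538 ± 212 CPM to 709 ± 109 and 488 ± 138 (-1.12 ± 0.29 and -1.65 ± 0.29, edgeR adjusted p = 0.023 and 0.00011). At day 3 it lost the threshold when replicate 1 or 2 of either day was left out (edgeR adjusted p 0.094 to 0.18). The circle of Lin54, a DNA-binding subunit of the DREAM complex that controls cell-cycle genes, had 2046, 2229 and 2078 CPM at day 0, 742, 975 and 856 at day 3, and 445, 722 and 615 at day 6. Its log2 fold change was -1.30 ± 0.26 and -1.83 ± 0.26 (edgeR adjusted p = 0.000702 and 9.45e-07). The circle of exon 2 of Pvt1, a long non-coding RNA gene next to Myc, went from 1309, 1897 and 2519.5 CPM to 1114, 754 and 613 and then 314, 775 and 424 (-1.21 ± 0.30 and -1.92 ± 0.30, edgeR adjusted p = 0.014 and 1.0e-05). Its call at day 3 was lost without replicate 3 of day 0 or replicate 3 of day 3 (edgeR adjusted p 0.0778 to 0.172).

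Agap1, which encodes a GTPase-activating protein for Arf, gave neighbouring members that moved in opposite directions. The circle of exons 2 to 6 had 2736, 2607 and 2336 CPM at day 0, 1059, 1041 and 1451 at day 3, and 584, 860.1 and 746 at day 6. The circle of exons 7 to 9 had 1412, 1323 and 1584 at day 0, 2395, 2639.8 and 2295 at day 3, and 1855, 1744 and 2415 at day 6. At day 0 the first was above the second in each library, and at days 3 and 6 it was below. The first fell, with log2 fold changes of -1.11 ± 0.23 at day 3 and -1.81 ± 0.23 at day 6 (edgeR adjusted p = 0.0016 and 9.4e-08). The second rose by 0.76 ± 0.20 at day 3 (edgeR adjusted p = 0.025) and was not called at day 6 (0.48 ± 0.20, adjusted p = 0.33). The rise was lost without replicate 1 or 2 of day 3 (edgeR adjusted p 0.0785 to 0.0974). The intron between exons 6 and 7, of 29366 bp, lies downstream of the first circle and upstream of the second. Both circles count in the list of membrane traffic and lipid genes, where 19 of 69 hosts had 31 members. Of 23 tested, 1 rose and 1 fell at day 3, and 1 fell at day 6. Among the 761 tested members of any host, 30 rose and 12 fell at day 3, and 27 rose and 17 fell at day 6. Of 228 tested circles of the listed genes without an identifier, 4 rose at day 3 and 5 at day 6, none falling.

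Other large increases were in circles of low level at day 0. The circle of exons 2 to 5 of Stau2, a double-stranded RNA-binding protein of RNA transport granules, had 6.25, 0 and 0 CPM at day 0, 806, 238 and 753 at day 3, and 346, 726 and 367 at day 6. Only 2 reads were listed at day 0, against 576 at day 3 and 411 at day 6, a ratio of CPM of 255 (95% counting interval 70.3 to 2111) and 191 (52.7 to 1587). Its edgeR adjusted p was 5.7e-11 and 9.8e-11. The circle of Pard3, a scaffold of cell polarity, had 24.99, 38.6 and 39.8 CPM at day 0, 398, 438 and 281 at day 3, and 283, 381 and 246 at day 6 (3.43 ± 0.63 and 3.13 ± 0.63, edgeR adjusted p = 0.00028 and 0.000699). The Fam53b circle, with no listed read in 1 day 0 library, rose by 2.95 ± 0.68 and 2.71 ± 0.67 on the log2 scale (edgeR adjusted p = 0.00696 and 0.0131). It did not pass with DESeq2 at day 3 (adjusted p = 0.0915), nor at day 6 with DESeq2 or without replicate 1 of day 0 (adjusted p 0.0794 to 0.0861). Lrch1 rose from 42.3 ± 36.9 CPM to 287 ± 133 and 519.5 ± 26.1 (2.74 ± 0.65 and 3.598 ± 0.67, edgeR adjusted p = 0.0104 and 0.00024). At day 3 it was lost without replicate 2 of day 0 or replicate 2 of day 3 (edgeR adjusted p 0.051 to 0.0729). The circles of Zbtb20, a zinc-finger repressor, and Ttc3, a ubiquitin ligase, rose by 2.34 ± 0.63 and 2.10 ± 0.52 at day 3 (edgeR adjusted p = 0.031 and 0.016). Zbtb20 did not pass at day 3 without replicate 2 of day 0 or replicate 3 of day 3, nor with DESeq2 (adjusted p 0.112 to 0.223), and at day 6 without replicate 2 of day 0 or with DESeq2 (adjusted p 0.124 to 0.151). Ttc3 did not pass at day 3 without replicate 2 or 3 of day 0 or replicate 1 of day 3, nor with DESeq2 (adjusted p 0.0603 to 0.0793). At day 6 the circle of Enah, an actin-regulating protein, was added to the largest rises, at 48.3 ± 42.1, 148 ± 33.7 and 385 ± 57.7 CPM (3.0 ± 0.79, edgeR adjusted p = 0.022). It was lost without replicate 1 of day 0 or replicate 2 or 3 of day 6, and with no count filter (edgeR adjusted p 0.0786 to 0.128).

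The remaining large decreases were in Ube2cbp and Snx5. The Ube2cbp circle went from 1295 ± 273 CPM to 515 ± 188 and 545 ± 15.3 (-1.33 ± 0.32 and -1.25 ± 0.32, edgeR adjusted p = 0.0102 and 0.0157). It was lost at day 3 without replicate 3 of day 0 or replicate 1 of day 3 (edgeR adjusted p 0.0689 to 0.187) and at day 6 without replicate 2 or 3 of day 0 or replicate 2 of day 6 (edgeR adjusted p 0.0509 to 0.117). The circle of Snx5, a sorting nexin of endosomes, was lower at day 6 (-1.74 ± 0.47, edgeR adjusted p = 0.031) and did not pass at day 3 (-0.85 ± 0.46, edgeR adjusted p = 0.42). It lost the threshold at day 6 without replicate 1 or 3 of day 0 or replicate 1 or 2 of day 6, and with no count filter (edgeR adjusted p 0.0572 to 0.313).

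Of the other members with the most reads, that of Rad52, a homologous recombination protein, rose from 2039, 2206 and 2591 CPM to 5326, 5784 and 4930.4 at day 3 and 4564, 5128 and 5309.9 at day 6. The log2 fold changes were 1.23 ± 0.14 and 1.13 ± 0.14 (edgeR adjusted p = 7.7e-09 and 5.7e-08), and its introns, of 1032 and 1446 bp, were short for a member. The Dcbld2 circle was lower at day 6 (-0.53 ± 0.14, edgeR adjusted p = 0.022), but not without replicate 3 of day 0 (edgeR adjusted p = 0.0739). At day 3 it passed with DESeq2, with no count filter and without replicate 2 of day 3 (adjusted p 0.0269 to 0.0397). Spred2, Phf21a, Stx6, Hipk3 and Arhgap10 (exons 14 to 18) did not pass in any comparison. Of these, Arhgap10 and Spred2 passed at both later days without replicate 3 of day 0 or with no count filter (edgeR adjusted p 0.000292 to 0.00684), with log2 fold changes of 0.33 to 0.70. Arhgap10 also passed at day 3 without any 1 library of day 6 and at day 6 with DESeq2 (adjusted p at most 0.049), and Spred2 at day 6 without replicate 2 of day 3 or replicate 1 of day 6 (edgeR adjusted p at most 0.0447). Stx6 passed at day 6 with DESeq2, with no count filter, and without replicate 3 of day 0, replicate 2 or 3 of day 3 or replicate 1 of day 6 (adjusted p 0.000636 to 0.0444). Hipk3 exon 2, a circle described in many mammalian tissues, had 3713, 3690.2 and 3403 CPM at day 0, 4436, 3225 and 5042 at day 3, and 3248, 4081 and 3757 at day 6. Phf21a, a reader protein of the CoREST complex, had means of 4765 ± 715, 5049 ± 383 and 4711 ± 495. Days overlapped for both. A second Arhgap10 circle, of exons 14 to 19, rose by 1.45 on the log2 scale at day 3 (edgeR adjusted p = 1.2e-05), where the one of exons 14 to 18 changed by 0.50 ± 0.15 (edgeR adjusted p = 0.104). It was singled out after its values were seen, and the difference between the circles was not tested. Among members found in all 9 libraries the widest were those of Rere (95603 bp), Tmem164 (82354 bp) and Tasp1 (79893 bp), and the narrowest those of Gse1 (219 bp), Pvt1 (318 bp) and Eif3c (364 bp). Of these, Tasp1 and Pvt1 passed, and Tasp1 fell from 1799 ± 282 CPM to 876 ± 169 and 685 ± 124 (-1.04 ± 0.26 and -1.39 ± 0.27, edgeR adjusted p = 0.018 and 0.00032). At day 3 the Tasp1 call was lost when replicate 2 or 3 of either day was left out (edgeR adjusted p 0.0663 to 0.16).

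The 10 members of Rere, described because no host had more, overlapped in their exons, and 2 of them were called. Overlapping circles of exons 5 to 10 and exons 4 to 7 rose at day 3, with log2 fold changes of 2.02 and 1.43 (edgeR adjusted p = 0.0070 and 0.021). The first also passed at day 6 (2.08, edgeR adjusted p = 0.0037) and the second did not (1.16, edgeR adjusted p = 0.098). The most abundant, exons 4 to 10, ends where the first of these does and was not called (0.66 and 0.72, edgeR adjusted p = 0.42 and 0.35). Differences between the Rere circles were not tested. The remaining 7 did not pass, 1 of them not being tested.

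Several lists had members and no call. The members of 23 ubiquitin-system hosts (19 tested of 29), of 7 DNA replication and repair hosts (6 of 9), of Asph, Cacna2d1 and Ryr3 for calcium handling (4 of 6) and of Adam9 and Ltbp1 for extracellular matrix (2 of 2) did not pass in any of the 3 comparisons. Rad52, Ttc3 and Ube2cbp are not on these lists. Of 23 marker genes for other lineages and reserve cells, only Cdh2 and Runx2 had a member, with 1 tested and not called. Sarcomere genes were nearly missing: of 39 listed, only Fhod3 had a member, with 34 reads in 2 libraries, too few to test. The same 39 genes had 189 exonic circRNAs without an identifier in 26 hosts, of which 4 of 26 tested rose at day 3 and 5 at day 6. No circle of Ttn, the titin gene, or of the calcium release channel gene Ryr1 carried an identifier. The list of hosts of circRNAs described in muscle or widely conserved, chosen for being known, had 30 members in 23 of its 51 genes. Of 25 tested, 2 rose (Nfix and Samd4) and 1 fell (Pvt1) at day 3, and Dcbld2 joined the decreases at day 6. Over all 761 tested members, 30 rose and 12 fell at day 3, and 27 rose and 17 fell at day 6. Of 143 tested circles of the listed genes without an identifier, 4 rose at day 3 and 6 at day 6, none falling. The circle of exon 2 of Zfp609, known as circZNF609 in human cells, had 943 CPM on average and did not pass (0.34 at day 3, edgeR adjusted p = 0.911; -0.43 at day 6, edgeR adjusted p = 0.595). In these bulk libraries, fewer cells with a circle and fewer circles per cell cannot be told apart. The table holds no linear reads, so neither muscle marker mRNAs nor the linear RNA of the hosts could be set beside the circles.

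Between day 6 and day 3, 2 of 761 tested members were called, both lower, against a background of 0.0613%. They were the Bub1b circle above and the circle of exon 2 of Zfp516, a zinc-finger transcription factor gene. The Zfp516 circle had 4276, 4808 and 4494 CPM at day 0, 3236, 2643 and 3274 at day 3, and 1433, 1947 and 1849 at day 6. The 3 days did not overlap. Day 6 was lower than day 3 (-0.81 ± 0.17, edgeR adjusted p = 0.014) and than day 0 (-1.38 ± 0.17, edgeR adjusted p = 1.6e-08), while day 3 against day 0 did not pass (-0.57 ± 0.16, edgeR adjusted p = 0.0602). The day 3 decrease passed in 10 of 13 alternatives (adjusted p 0.000139 to 0.0447), among them DESeq2, scaling by library totals, no count filter and the omission of any 1 library of day 6. Without replicate 1 of day 6 the adjusted p for day 6 against day 3 was 0.0777. The median log2 fold change of tested members was -0.09, as over all tested circRNAs.

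Whether the members of a host changed relative to its other exonic circles was asked in 520 hosts with enough reads in both classes. None of the ratios passed in any of the 3 comparisons (edgeR's quasi-likelihood test on the interaction of class and day). Unadjusted p was under 0.05 in 17 hosts at day 3 and 18 at day 6, both against day 0, and in 12 between the later days, and limma on the log2 ratio called 0, with 26, 34 and 24 such hosts. The smallest adjusted p was 0.52, for Pard3 at day 3, whose 2 members, summed, had a log2 change 2.24 ± 0.45 above that of its other circles. The 2 Pard3 members summed to 18, 10 and 10 reads at day 0 and 158, 168 and 123 at day 3, and the other circles to 207, 251 and 187 and then 480, 550 and 597. In Stx6 the member took nearly all reads, with 1086, 740 and 882 at day 0, when the other circles had 0, 0 and 21. Without replicate 3 of day 0, the library with the 21 reads, Stx6 was called at day 3 and day 6 (edgeR adjusted p = 0.022 and 0.0045). In Fam53b the other circles had no listed read at day 0, 62, 64 and 64 reads at day 3 and 81, 90 and 88 at day 6, while the member had 0, 27 and 15, then 123, 93 and 183, then 95, 60 and 167. In Mthfd2l, the gene of a mitochondrial folate enzyme, the difference was -1.50 ± 0.50 at day 3 and -1.25 ± 0.50 at day 6. In Utrn it was 0.59 ± 0.34 and 1.05 ± 0.34. In Aagab the other circles had at most 18 reads in a library and none at day 6, beside 182 to 424 for the member. The adjusted p of these 4 hosts was 0.997 in each comparison (edgeR's quasi-likelihood test).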

How the data were processed

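A single table of raw counts of back-splice reads was deposited by the authors, which lists for each circRNA its position, type and host gene and the identifier of a known circRNA where there was one. Per the submitters' processing notes, BWA and the mouse build GRCm38.p4 (mm10) were used. The circRNA caller, its filters and versions were not given in the sources used here. Single reads appear as 0, since the smallest count above 0 is 2. In a check of the build, 98.3% of member starts and 99.1% of member ends lay at exon edges of GENCODE M21. Transcript, exon and intron values come from that annotation.

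The members, the 13 gene lists and the tests were chosen with earlier results of these data known. Counts of all 37751 circRNAs were fitted together with edgeR 4.0.16 in R 4.3.3 (TMM factors, filterByExpr with minimum count 5 and minimum total 15, quasi-likelihood F-test, 9 libraries, 6 residual degrees of freedom). P-values were adjusted over all 8153 tested circRNAs by Benjamini-Hochberg, with a threshold of 0.05. CPM are reads scaled to a common total by the TMM-adjusted library sizes. The standard error of a log2 fold change (prior count 0.125) is approximate and was taken as its size over the root of the F statistic. It rests on a spread that edgeR pools over circRNAs and can be smaller than the spread among the libraries of a single circRNA. Class differences were tested over libraries by exact permutation or sign-flip tests. Hosts entered the ratio test with at least 15 reads of each class over all libraries, and reads of each class in at least 3 libraries. Reads are PCR products without molecular identifiers, and intervals and floors speak of counting error alone. Scripts were tested on simulated data. Libraries of a day differed by more than counting noise, by a chi-square per degree of freedom of 11.8 to 15.5 over members.

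Named members are the 12 with the highest mean CPM, per comparison the 7 largest rises and the 7 largest falls past the threshold without overlap, called members of listed hosts (at most 4 per list and comparison), the 6 hosts of smallest adjusted p in the ratio test, and the 3 widest and 3 narrowest in all 9 libraries. The alternatives were DESeq2 1.42.0, scaling by library totals, no count filter, a replicate block, each library left out and, for the ratio, limma 3.58.1.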

Additional observations from a re-analysis of the deposited data

How the results depend on the processing

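Of 55 results of named members past the threshold, none changed direction in 715 alternatives, 650 alternatives kept the threshold and 65 lost it, for 26 of the results, each named with its gene in the report. Of 62 results of named members not past it, 12 passed it in 45 of 806 alternatives. Those not given above are for day 6 against day 3, Tns3 with no count filter and without day 6 replicate 3 (edgeR adjusted p 0.00903 to 0.0102), Espl1 without day 6 replicate 1 (0.025) and Gigyf2 with no count filter (0.000446). The number of called members at day 6 was 44, and 93 with DESeq2 (56 higher, 37 lower), of which 39 were among the 44. For day 6 against day 3 it was 2, and 5 with DESeq2 and 5 with no filter on low counts. Leaving out 1 library gave 32 to 52 at day 3, 40 to 56 at day 6 and 2 to 3 for day 6 against day 3. The replicate numbers did not pair the samples, as same-numbered libraries correlated between -0.031 and 0.01 in their deviations from the day means. With a replicate block the counts were 48, 49 and 2. The member share of exonic reads, a mean of 32.5%, was 35.0% over circRNAs in at least 2 libraries and 28.8% without the 10 exonic circRNAs with the most reads. Under these alternatives the difference of day 3 from day 0 was 2.30 and 2.03 percentage points, and that of day 6 was 1.60 and 1.35. The member share of exonic circRNAs, 8.05%, was 10.6% over those in at least 2 libraries. Without 1 library these shares were 32.2% to 32.8% and 7.88% to 8.18%, and the read share differed from day 0 by 2.59 to 3.37 points at day 3 and 1.69 to 3.24 at day 6. The day 6 minus day 3 value ranged from -1.38 to 0.171 points. For the share of circRNAs the ranges were -0.0946 to 0.722, 0.347 to 1.37 and 0.112 to 1.14 points. The log2 difference in reads, the difference in recurrence and that in span were 2.44 to 2.49, 37.6 to 38.6 points and -0.09 to -0.07. The number of calls of a changed ratio, over hosts and comparisons, was 0 to 2, the 2 both being of Stx6, at day 3 and day 6 without day 0 replicate 3. Depth limits the 224 untested members, and no member under 100 CPM was called.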

Other observations

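The identifier was also given to 42 circRNAs that were deposited as not exonic, 22 as intronic and 20 as intergenic, with 9210 reads in all. Of the 20 intergenic ones, 16 had both ends at annotated exon edges, as did 1 of the 22 intronic ones. None of the intergenic and 5 of both kinds together were listed in all 9 libraries. The most abundant was an intronic one of Gm21992 (chr19:4784724-4794009, minus strand) with 2792 reads. Of 28 tested, 1 was called, at day 3 and at day 6 against day 0. That circRNA of Etv6, a transcriptional repressor gene (chr6:134062064-134066465, plus strand), had no listed read at day 0, 40, 72 and 92 reads at day 3, and 47, 92 and 117 at day 6.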
